A study of Mus musculus with 6 samples.

Results

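Secreted Wnt inhibitors are extracellular proteins that keep Wnt ligands from signaling through their receptors. The 10 genes described here, *Sfrp1*, *Sfrp2*, *Sfrp4*, *Sfrp5*, *Frzb*, *Wif1*, *Dkk1*, *Dkk2*, *Dkk3* and *Sostdc1*, were chosen by name, and each matched 1 of the 32350 gene entries of the RNA-seq table. The tissue was the calvaria, the bony vault of the skull, dissected from *Tmem53*-/- mutant pups and *Tmem53*+/- pups of the B6N mouse strain at postnatal day 3. Each genotype had 3 libraries, and each library came from 1 pup. *Tmem53* encodes a protein of the nuclear envelope, and the mutant line carries CRISPR/Cas9 frame-shift alleles. The *Tmem53*+/- siblings carry 1 such allele themselves, and no wild-type library was used here, so every difference below is between pups with mutations in both copies and pups with a mutation in 1 copy.

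Wnt ligands bind a frizzled receptor together with the coreceptor Lrp5 or Lrp6, after which beta-catenin escapes degradation, enters the nucleus and activates genes together with TCF/LEF factors. The pathway drives the formation of osteoblasts, the bone-building cells, and holds back the formation of osteoclasts, the bone-resorbing cells. Its secreted inhibitors work at different points. The secreted frizzled-related proteins (SFRPs, including Frzb) and Wif1 bind the Wnt ligands themselves, whereas Dkk1, Dkk2 and Sostdc1 bind Lrp5 and Lrp6. Dkk3 is a divergent relative of the Dkk proteins whose part in Wnt signaling is not settled.

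The promoter windows of 4 members whose libraries of the 2 genotypes did not overlap are printed to show the sequence around the start of genes whose levels separated the pups. They are RefSeq sequences of build GRCm38.p6 in the direction of transcription, from 250 bases before to 50 bases after the start of the gene, and 6 of the 10 members had such a window, all but *Sfrp1*, *Sfrp4*, *Dkk3* and *Sostdc1*. Capitals mark the TCF/LEF core searched for, CTTTGA or CTTTGT on either strand. *Sfrp2* lies at chr3:83766071-83766370 (plus strand), *Wif1* at chr10:121033754-121034053 (plus strand), *Dkk2* at chr3:132085042-132085341 (plus strand) and *Frzb* at chr2:80447347-80447646 (minus strand).
Sfrp2: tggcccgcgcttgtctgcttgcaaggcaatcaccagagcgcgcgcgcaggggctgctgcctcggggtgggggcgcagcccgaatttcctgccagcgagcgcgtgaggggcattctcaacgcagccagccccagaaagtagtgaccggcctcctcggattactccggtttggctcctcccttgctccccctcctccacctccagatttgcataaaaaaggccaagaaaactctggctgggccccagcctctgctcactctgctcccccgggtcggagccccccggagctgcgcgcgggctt
Wif1: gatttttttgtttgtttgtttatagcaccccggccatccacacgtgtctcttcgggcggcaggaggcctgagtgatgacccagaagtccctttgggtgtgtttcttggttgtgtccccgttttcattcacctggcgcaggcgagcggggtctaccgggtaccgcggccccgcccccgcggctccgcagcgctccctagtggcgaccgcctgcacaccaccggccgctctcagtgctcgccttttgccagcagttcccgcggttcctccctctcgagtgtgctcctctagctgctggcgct
Dkk2: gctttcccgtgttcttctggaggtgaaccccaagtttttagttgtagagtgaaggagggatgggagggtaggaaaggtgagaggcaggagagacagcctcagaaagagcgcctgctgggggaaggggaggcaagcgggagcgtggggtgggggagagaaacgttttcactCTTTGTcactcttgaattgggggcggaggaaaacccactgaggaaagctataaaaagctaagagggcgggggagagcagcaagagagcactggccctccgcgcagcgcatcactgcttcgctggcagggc
Frzb: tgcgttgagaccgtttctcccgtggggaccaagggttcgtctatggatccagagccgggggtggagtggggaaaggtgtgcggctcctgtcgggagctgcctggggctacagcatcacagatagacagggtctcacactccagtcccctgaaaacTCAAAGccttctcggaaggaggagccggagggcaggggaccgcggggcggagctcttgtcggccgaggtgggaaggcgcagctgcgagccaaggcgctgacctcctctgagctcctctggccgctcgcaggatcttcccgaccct
The *Dkk2* window held the core once, as CTTTGT with its first base at position -80, and the *Frzb* window held it once on the other strand, as TCAAAG at position -95. The *Sfrp2* and *Wif1* windows held no match to these letters. Among the other windows, that of *Dkk1* held 3 matches, at -174, -117 and -98, and that of *Sfrp5* held none. Of 32851 RefSeq promoter windows of the same length, 31.2% held at least 1 such core. A RUNX core, TGTGGT on either strand, stood in the windows of *Dkk1* at -207 and *Sfrp5* at -192, against 16.8% of all windows, and the SMAD1/5 palindrome GGCGCC stood in no member's window, against 11.9% of all windows. These matches describe letters only.

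Levels are given in FPKM, which scale the fragments of a gene to its exon length and to all fragments mapped in the library, so that genes of different length can be compared. In *Tmem53*-/- calvaria the most abundant members were *Sfrp1*, *Sfrp2* and *Dkk3*. Over the 3 libraries *Sfrp1* overlapped *Sfrp2*, and *Sfrp2* overlapped *Dkk3*. *Sfrp1*, at 137 to 164 FPKM, stood clear of *Dkk3*, at 102 to 130 FPKM. Next came *Wif1*. Below it, *Frzb* overlapped *Sfrp4*, *Sfrp4* overlapped *Dkk2*, and *Dkk1* and *Sostdc1* were at the low end. In *Tmem53*+/- calvaria *Sfrp1* and *Sfrp2* overlapped each other and stood clear of *Dkk3*, which stood clear of *Dkk2*. *Dkk2* in turn was above *Wif1*, *Frzb* and *Sfrp4*, each of which overlapped the next, with *Sostdc1* and *Dkk1* at the low end. *Sfrp5* is not placed in either order, since it was listed at 0 in 4 of the 6 libraries and such values can be failed estimates.

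**Figure D1:**
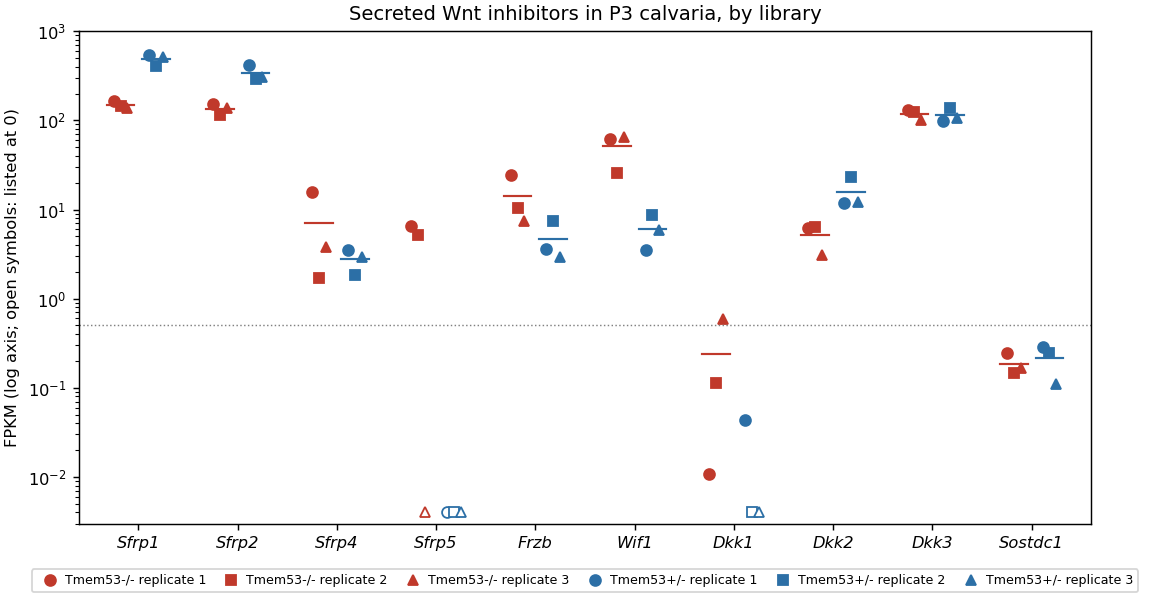
FPKM of the 10 members on a log axis, with 1 symbol per library and the mean of each genotype as a short line where no library was at 0. The dotted line marks 0.5 FPKM, the mean below which a gene was not tested; *Tmem53*-/- symbols lie below all *Tmem53*+/- symbols for *Sfrp1*, *Sfrp2* and *Dkk2* and above them for *Frzb* and *Wif1*.

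Of the 10 members, 8 had a mean of at least 0.5 FPKM and were tested with limma on log2(FPKM + 0.5), in a fit over 13535 genes. At a Benjamini-Hochberg adjusted p under 0.05, *Wif1* rose in *Tmem53*-/- calvaria and *Sfrp1* and *Sfrp2* fell, and the other 5 tested members were not called. Of these, *Sfrp5*, passed the minimum only through *Tmem53*-/- libraries. Over all genes tested, 3.44% were called higher and 3.63% lower, beside 1 and 2 of the 8 members. Every *Tmem53*-/- library lay below every *Tmem53*+/- library in 3 members, *Sfrp1*, *Sfrp2* and *Dkk2*, and above in 2, *Frzb* and *Wif1*. The same held for 16.0% of all genes tested in the lower direction and for 21.2% in the higher, so that the 2 members above are near the background. The median log2 fold change of the 8 members was 0.40, or 0.07 without *Sfrp5*, whose *Tmem53*+/- libraries were all listed at 0, beside 0.05 over all genes tested. Without *Tmem53*-/- replicate 1 the median of the 8 was -0.03, and without *Tmem53*-/- replicate 2 it was 0.70.

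**Figure D2:**
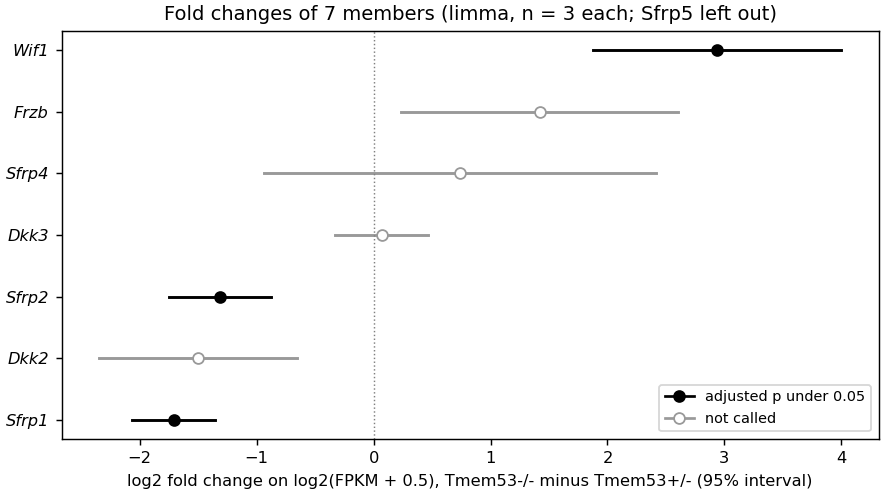
Log2 fold change of 7 tested members with its 95% interval from limma, *Tmem53*-/- minus *Tmem53*+/- (n = 3 each), with filled points for an adjusted p under 0.05. *Sfrp1* and *Sfrp2* lie below 0 and *Wif1* above 0 with filled points; *Sfrp5* is left out because it was listed at 0 in every *Tmem53*+/- library.

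A few facts of the libraries touch these results. FPKM summed to between 569846 and 611928 per library, and depths estimated from the steps between low values were 0.864 to 1.21 times that of *Tmem53*+/- replicate 1. By *Xist* and *Ddx3y*, all 3 *Tmem53*-/- pups and *Tmem53*+/- replicate 2 were male, and *Tmem53*+/- replicates 1 and 3 were female, so sex is partly aligned with genotype. *Tmem53*+/- replicate 2 correlated less well with its group (r = 0.956 and 0.957 across genes, on log2 values) than its group mates did with each other (0.991), and *Tmem53*-/- replicate 3 likewise stood further from its group (0.952 and 0.960, against 0.982). Values of 0 can be failed estimates in this table, because *Col1a1*, with 2614 to 4090.4 FPKM in the other libraries, was listed at 0 in *Tmem53*-/- replicate 3 and in *Tmem53*+/- replicate 2. *Tmem53* itself had 13.9, 10.9 and 10.04 FPKM in *Tmem53*-/- calvaria, against 7.22, 6.38 and 7.16 FPKM in *Tmem53*+/- calvaria. Because frame-shift alleles can leave transcript levels intact, the labels cannot be checked in this way.

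*Sfrp1*, a frizzled-related protein that binds Wnt ligands through a cysteine-rich domain like that of the frizzled receptors, fell in *Tmem53*-/- calvaria, with a ratio of 0.304 to the *Tmem53*+/- mean. Its entry spans 24521973 to 24560104 of chromosome 8 in NCBI build37.2, the build of the deposited table and of all gene coordinates that follow. It had 164, 144 and 137 FPKM in *Tmem53*-/- calvaria, against 544, 410.3 and 509 FPKM in *Tmem53*+/- calvaria. The groups were far apart, and the lowest *Tmem53*+/- library was replicate 2. The mean was 148 ± 14.1 FPKM in *Tmem53*-/- calvaria and 488 ± 69.4 FPKM in *Tmem53*+/- calvaria (SD, n = 3 each), which puts *Sfrp1* at rank 504 of the 13535 genes in *Tmem53*-/- calvaria and at rank 161 in *Tmem53*+/- calvaria. The log2 fold change was -1.71 (95% interval -2.06 to -1.35, SE 0.147, limma adjusted p = 0.00647), larger in size than that of 97.1% of the genes tested. The call held in 12 of 14 alternatives, and the limma adjusted p was 0.0507 without *Tmem53*+/- replicate 3, within a range of 0.00155 to 0.0518. In bulk tissue, fewer cells that express a gene and less RNA per cell cannot be told apart.

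*Sfrp2*, a close relative of *Sfrp1* in the same branch of the family, fell as well. The gene lies on chromosome 3 from 83570242 to 83578236. It had 152, 116 and 136 FPKM in *Tmem53*-/- calvaria, against 420.1, 293 and 303 FPKM in *Tmem53*+/- calvaria. No library of either genotype came near the other genotype's range. The mean was 135 ± 17.9 FPKM in *Tmem53*-/- calvaria and 339 ± 70.5 FPKM in *Tmem53*+/- calvaria (SD, n = 3 each). The log2 fold change was -1.32 (95% interval -1.75 to -0.881, SE 0.1804, limma adjusted p = 0.0204). Its call was less stable than its direction, with a limma adjusted p of 0.0666 without *Tmem53*-/- replicate 1, 0.0624 without *Tmem53*-/- replicate 2, 0.0631 without *Tmem53*+/- replicate 1 and 0.0853 without *Tmem53*+/- replicate 3, the highest of all alternatives, whose lowest was 0.0102.

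The other frizzled-related proteins did not pass the test. *Frzb*, also called *Sfrp3*, was first purified from cartilage and lies on chromosome 2 from 80252126 to 80287969. It had 24.3, 10.3 and 7.40 FPKM in *Tmem53*-/- calvaria, against 3.63, 7.38 and 2.90 FPKM in *Tmem53*+/- calvaria. The groups did not overlap, but *Tmem53*-/- replicate 3 and *Tmem53*+/- replicate 2 were nearly level. The log2 fold change was 1.42 (95% interval 0.236 to 2.60, SE 0.492, limma adjusted p = 0.125). With both of these libraries left out, an alternative chosen after the data had been seen, it was 2.13 with a limma adjusted p of 0.0197, the lowest over 14 alternatives, whose highest was 0.476.

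*Sfrp4*, a frizzled-related protein whose human gene is mutated in a disease of thin cortical bone, lies on chromosome 13 from 19715043 to 19724694. It had 15.6, 1.70 and 3.77 FPKM in *Tmem53*-/- calvaria, against 3.55, 1.86 and 2.90 FPKM in *Tmem53*+/- calvaria. The groups overlapped, and 1 library, *Tmem53*-/- replicate 1, stood above the rest. The log2 fold change was 0.74 (95% interval -0.936 to 2.41, SE 0.696, limma adjusted p = 0.531), and -0.06 without *Tmem53*-/- replicate 1. *Sfrp5*, of the same branch as *Sfrp1* and *Sfrp2*, lies on chromosome 19 from 42272460 to 42276742 and was listed at 6.55, 5.22 and 0 FPKM in *Tmem53*-/- calvaria, against 0 FPKM in all 3 *Tmem53*+/- libraries. Neither a fold change nor a test is given for it, since it passed the minimum only through the mutants and is set against values of 0.

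*Wif1* was the member that rose. Wif1 binds Wnt ligands through a domain of its own, unlike that of the SFRPs, and is made by maturing osteoblasts in mice. The gene lies on chromosome 10 from 120471059 to 120537698. It had 62.2, 25.9 and 65.6 FPKM in *Tmem53*-/- calvaria, against 3.56, 8.78 and 5.94 FPKM in *Tmem53*+/- calvaria. Even the lowest *Tmem53*-/- library, replicate 2, was well above the highest *Tmem53*+/- library, which was also replicate 2. The mean was 51.2 ± 22.0 FPKM in *Tmem53*-/- calvaria and 6.09 ± 2.61 FPKM in *Tmem53*+/- calvaria (SD, n = 3 each), a ratio of 8.41, and the rank of *Wif1* among the 13535 genes was 1611 in *Tmem53*-/- calvaria and 8390 in *Tmem53*+/- calvaria. The log2 fold change was 2.94 (95% interval 1.88 to 4.001, SE 0.441, limma adjusted p = 0.0226), larger in size than that of 99.4% of the genes tested. The limma adjusted p was 0.0883 without *Tmem53*-/- replicate 1, 0.0937 without *Tmem53*+/- replicate 1, 0.1001 without *Tmem53*+/- replicate 3 and 0.0660 with sex as a covariate, within a range of 0.0116 to 0.102 and with a log2 fold change between 2.37 and 3.37 over all alternatives.

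Among the inhibitors that act on the coreceptors, *Dkk2* was lower in every *Tmem53*-/- library without passing the test. Dkk2 binds Lrp5 and Lrp6, and in mice its loss impairs the mineralization of bone. The gene lies on chromosome 3 from 131748255 to 131843268. It had 6.18, 6.34 and 3.08 FPKM in *Tmem53*-/- calvaria, against 11.9, 23.3 and 12.1 FPKM in *Tmem53*+/- calvaria. The groups did not overlap, and *Tmem53*+/- replicate 2 stood above its group mates. The log2 fold change was -1.502 (95% interval -2.35 to -0.652, SE 0.353, limma adjusted p = 0.0552). With sex as a covariate, which sets the mutants against *Tmem53*+/- replicate 2 as the only male of its genotype, it was -2.12 with a limma adjusted p of 0.0386. Without *Tmem53*-/- replicate 3 and *Tmem53*+/- replicate 2 together it was -0.89 with a limma adjusted p of 0.00407, the lowest over the alternatives, and the highest was 0.1398 without *Tmem53*+/- replicate 1.

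*Dkk3*, the divergent Dkk, was abundant in both genotypes. The gene lies on chromosome 7 from 119259532 to 119302571. It had 130, 124 and 102 FPKM in *Tmem53*-/- calvaria, against 97.5, 139 and 106 FPKM in *Tmem53*+/- calvaria. The ranges overlapped almost fully, and the log2 fold change was 0.07 (95% interval -0.333 to 0.469, SE 0.167, limma adjusted p = 0.826). It was 0.32 (limma adjusted p = 0.0293) only when *Tmem53*-/- replicate 3 and *Tmem53*+/- replicate 2 were left out together. *Dkk1*, the most studied inhibitor of Lrp5 and Lrp6, lies on chromosome 19 from 30620365 to 30623986 and was too low to be tested, with 0.0109, 0.112 and 0.598 FPKM in *Tmem53*-/- calvaria, against 0.0435, 0 and 0 FPKM in *Tmem53*+/- calvaria. *Sostdc1*, which binds both Lrp6 and BMPs, lies on chromosome 12 from 37040755 to 37045039 and was also below the limit of the test, with 0.244, 0.148 and 0.167 FPKM in *Tmem53*-/- calvaria, against 0.287, 0.248 and 0.110 FPKM in *Tmem53*+/- calvaria.

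Within the male pups alone, genotype could be compared only as single values, since replicate 2 was the only male *Tmem53*+/- pup. *Sfrp1* had 137 to 164 FPKM in the male *Tmem53*-/- pups, against 410.3 FPKM in the male *Tmem53*+/- pup. *Sfrp2* had 116 to 152 FPKM in the male *Tmem53*-/- pups, against 293 FPKM in the male *Tmem53*+/- pup, and *Wif1* had 25.9 to 65.6 FPKM in the male *Tmem53*-/- pups, against 8.78 FPKM in the male *Tmem53*+/- pup. Since the genotypes did not overlap in any of these 3 called genes, the male *Tmem53*+/- pup was bound to lie on the *Tmem53*+/- side. *Dkk2*, not called, had 3.08 to 6.34 FPKM in the male *Tmem53*-/- pups, against 23.3 FPKM in the male *Tmem53*+/- pup. For *Frzb*, also not called, the lowest male *Tmem53*-/- pup had 7.40 FPKM and the male *Tmem53*+/- pup 7.38 FPKM, nearly level. Each comparison rests on 1 *Tmem53*+/- pup, which stood apart from its group, and the part of sex was not tested. With sex as a covariate, the log2 fold change was -1.47 for *Sfrp1* and -1.13 for *Sfrp2*. No *Tmem53*-/- pup was female, so the genotype difference in that fit comes from replicate 2 as its only *Tmem53*+/- library. *Wif1* had a log2 fold change of 2.37 in that fit.

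Summed over the 10 members, the transcript level was lower in *Tmem53*-/- calvaria and its make-up differed. The sums were 561, 434 and 456 FPKM in *Tmem53*-/- calvaria, against 1085, 884 and 942 FPKM in *Tmem53*+/- calvaria. The mean was 484 ± 67.7 FPKM in *Tmem53*-/- calvaria and 970.1 ± 104 FPKM in *Tmem53*+/- calvaria (SD, n = 3 each), with *Sfrp5* entered at 0 where it was listed so. An exact two-sided permutation test gave p = 0.1, which is the smallest value possible with 3 pups a group. *Sfrp1* and *Sfrp2* together made up 58.7 ± 2.07% of the sum in *Tmem53*-/- calvaria and 84.9 ± 4.78% in *Tmem53*+/- calvaria. Without these genes the sum was 201 ± 38.7 FPKM in *Tmem53*-/- calvaria and 143 ± 32.2 FPKM in *Tmem53*+/- calvaria (exact two-sided permutation test, p = 0.2), so that the lower total lay in *Sfrp1* and *Sfrp2*.

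Within the sum, *Wif1* made up 10.5 ± 4.24% in *Tmem53*-/- calvaria and 0.651 ± 0.333% in *Tmem53*+/- calvaria. *Dkk3* made up 24.7 ± 3.36% in *Tmem53*-/- calvaria and 12.0 ± 3.41% in *Tmem53*+/- calvaria, although its own level was nearly the same in both, because a share also moves with the rest of the sum. Relative to *Sfrp1* in the same library, *Wif1* stood at 34.7 ± 15.3% in *Tmem53*-/- calvaria and at 1.32 ± 0.755% in *Tmem53*+/- calvaria. The ratio of *Sfrp1* to *Sfrp2* was 1.11 ± 0.121 in *Tmem53*-/- calvaria and 1.46 ± 0.197 in *Tmem53*+/- calvaria (SD, n = 3 each, for all of these). FPKM give transcripts, and the amount and activity of the proteins were not measured.

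**Figure D3:**
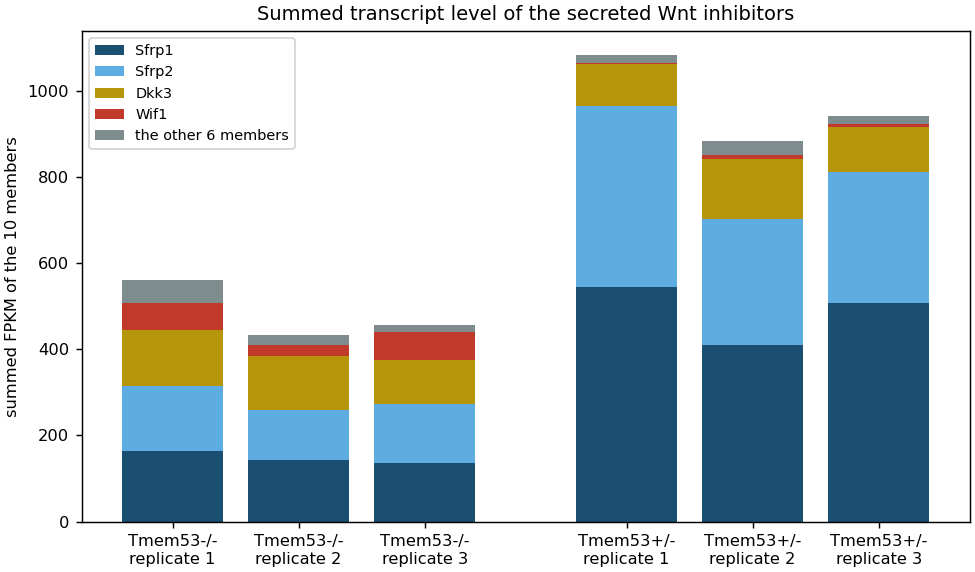
Summed FPKM of the 10 members in each library, stacked by gene, with *Tmem53*-/- libraries on the left and *Tmem53*+/- libraries on the right. The *Tmem53*-/- sums of 434 to 561 FPKM lie below the *Tmem53*+/- sums of 884 to 1085 FPKM, with thinner *Sfrp1* and *Sfrp2* blocks and a thicker *Wif1* block.

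Around the members, 87 further genes of the Wnt pathway were listed by role, of which 85 matched an entry and 60 were high enough to be tested. Of these, 9 rose in *Tmem53*-/- calvaria, 0 fell and 51 were not called by limma, beside the 3.44% and 3.63% of all genes. At an unadjusted p under 0.05 there were 23 higher and 2 lower, a level that 15.0% of all genes tested reached in the higher and 12.9% in the lower direction. Of the 60, 4 had a *Tmem53*+/- mean below 0.5 FPKM and passed the minimum only through the mutants, namely *Axin2*, *Tcf7*, *Wnt10b* and *Wnt11*, the last 3 named after their values had been seen. The median log2 fold change of the 60 genes was 0.29, beside 0.05 over all genes tested. The 9 calls became 1 without *Tmem53*-/- replicate 1, 2 without *Tmem53*-/- replicate 2, 1 without *Tmem53*+/- replicate 1, 17 without *Tmem53*+/- replicate 2 and 0 without *Tmem53*+/- replicate 3. *Shisa2* was the gene still called without *Tmem53*-/- replicate 1 or *Tmem53*+/- replicate 1, and with *Tnfrsf11b* without *Tmem53*-/- replicate 2. The highest limma adjusted p over all alternatives was 0.0582 for *Shisa2* and 0.0967 for *Tnfrsf11b*, and between 0.106 (*Lrp4*) and 0.145 (*Tcf7*) for the other 7.

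Among 7 tested inhibitors outside the list of members, 1 rose. *Shisa2*, of a family that in Xenopus holds frizzled and FGF receptors back inside the cell, had 5.72, 4.47 and 5.98 FPKM in *Tmem53*-/- calvaria, against 1.12, 0.940 and 0.610 FPKM in *Tmem53*+/- calvaria. The groups were well apart, and the log2 fold change was 2.09 (limma adjusted p = 0.00664, SE 0.189), with an adjusted p of 0.0507 without *Tmem53*+/- replicate 3. *Sost*, which encodes sclerostin, the osteocyte inhibitor of Lrp5 and Lrp6, was at 0, 0.0859 and 0.0795 FPKM in *Tmem53*-/- calvaria, against 0 FPKM in each *Tmem53*+/- library, and was not tested. Of the ligands and the proteins that secrete them, 9 were tested and limma called 0, with 6 at an unadjusted p under 0.05, beside 27.9% of all genes tested. Among these 6 are *Wnt10b* and *Wnt11*, which passed the minimum only through the mutants.

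Of 16 tested receptors and coreceptors, 2 rose and 14 were not called. *Fzd2*, a frizzled receptor, averaged 21.6 ± 1.02 FPKM in *Tmem53*-/- calvaria and 16.0 ± 0.426 FPKM in *Tmem53*+/- calvaria (SD, n = 3 each; log2 fold change 0.42, limma adjusted p = 0.0364). *Lrp4*, which in bone anchors sclerostin, averaged 8.07 ± 2.12 FPKM in *Tmem53*-/- calvaria and 3.21 ± 0.0881 FPKM in *Tmem53*+/- calvaria (SD, n = 3 each; log2 fold change 1.18, limma adjusted p = 0.0232). The coreceptors that Dkk1 and Dkk2 bind were not called. *Lrp5* averaged 15.0 ± 0.522 FPKM in *Tmem53*-/- calvaria and 14.9 ± 2.76 FPKM in *Tmem53*+/- calvaria, with a 95% interval of the log2 fold change from -0.315 to 0.363. *Lrp6* averaged 19.4 ± 3.33 FPKM in *Tmem53*-/- calvaria and 20.3 ± 4.29 FPKM in *Tmem53*+/- calvaria, with an interval from -0.500 to 0.387.

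Among the R-spondins, which strengthen Wnt signaling, and their receptors, 4 were tested and the receptor *Lgr4* rose, with 19.1 ± 2.06 FPKM in *Tmem53*-/- calvaria and 12.1 ± 1.40 FPKM in *Tmem53*+/- calvaria (SD, n = 3 each; log2 fold change 0.64, limma adjusted p = 0.0366). Of 16 tested mediators inside the cell, *Tcf7l1*, a TCF factor that mostly represses, rose, with 18.6 ± 0.207 FPKM in *Tmem53*-/- calvaria and 12.3 ± 1.95 FPKM in *Tmem53*+/- calvaria (SD, n = 3 each; log2 fold change 0.59, limma adjusted p = 0.0428). Both changes were smaller in size than those of the called members. Among the 16 mediators, *Bcl9l*, named after its values had been seen, was not called. It was listed at 0, 17.5 and 17.6 FPKM in *Tmem53*-/- calvaria, against 0, 15.5 and 0 FPKM in *Tmem53*+/- calvaria. Such values of 0 can be failed estimates, and the gene is counted in the tested genes and their median. *Ctnnb1*, which encodes beta-catenin, was at 232, 200.3 and 243 FPKM in *Tmem53*-/- calvaria, against 163, 186 and 157 FPKM in *Tmem53*+/- calvaria (log2 fold change 0.41, limma adjusted p = 0.0919).

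Of 8 tested targets of beta-catenin 4 rose, of which *Axin2* and *Tcf7* passed the minimum only through the mutants. *Axin2*, a feedback inhibitor and the usual readout of the pathway, had 1.25, 1.09 and 1.17 FPKM in *Tmem53*-/- calvaria, against 0.427, 0.417 and 0.391 FPKM in *Tmem53*+/- calvaria. The replicates of each genotype were close together, and the log2 fold change was 0.87 (limma adjusted p = 0.0258, SE 0.1402). Because *Axin2* entered the test only through the mutants, its call is a description only. *Nkd1*, another feedback inhibitor, averaged 3.77 ± 0.445 FPKM in *Tmem53*-/- calvaria and 1.86 ± 0.254 FPKM in *Tmem53*+/- calvaria (SD, n = 3 each; log2 fold change 0.85, limma adjusted p = 0.0269). *Axin2* and *Nkd1* each lost the call in 4 of the 6 fits without 1 library, with limma adjusted p up to 0.111 and 0.108, both without *Tmem53*+/- replicate 3.

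*Tnfrsf11b*, which encodes osteoprotegerin, the decoy that blocks the formation of osteoclasts, had 62.2, 33.1 and 65.3 FPKM in *Tmem53*-/- calvaria, against 10.02, 15.0 and 13.2 FPKM in *Tmem53*+/- calvaria (log2 fold change 1.99, limma adjusted p = 0.0222). Among the mutants its libraries stood in the order seen for *Wif1*, with replicate 3 highest and replicate 2 lowest. Of the other called pathway genes, *Shisa2*, *Fzd2*, *Lrp4* and *Nkd1* had this order too. *Axin2*, *Lgr4*, *Tcf7l1* and *Tcf7* did not, so the order is not particular to *Tnfrsf11b*. *Tcf7*, a TCF factor and target, named here after its values had been seen, had 2.27, 2.52 and 8.83 FPKM in *Tmem53*-/- calvaria, against 0.343, 0.293 and 0.515 FPKM in *Tmem53*+/- calvaria (log2 fold change 2.28, limma adjusted p = 0.0424). It too entered the test only through the mutants, so that its call is a description only. *Lef1*, the other classical partner of beta-catenin, was not tested, with 0.443, 0.399 and 0.688 FPKM in *Tmem53*-/- calvaria, against 0.0625, 0.233 and 0.159 FPKM in *Tmem53*+/- calvaria.

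**Figure D4:**
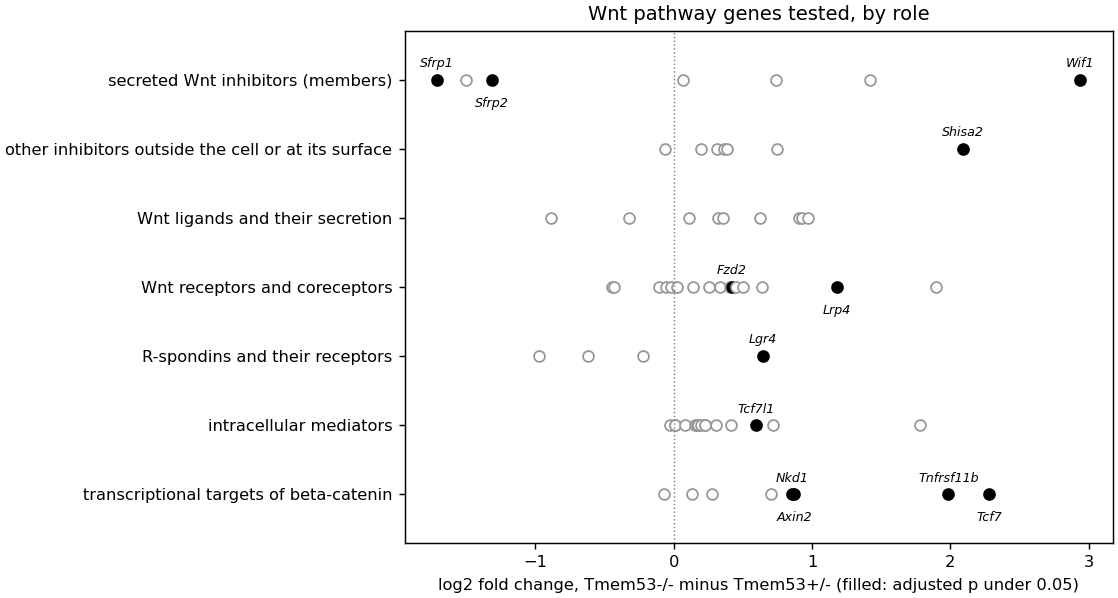
Log2 fold change of the tested Wnt pathway genes by role, *Tmem53*-/- minus *Tmem53*+/-, with 1 point per gene, filled for a limma adjusted p under 0.05, and *Sfrp5* left out. *Sfrp1* and *Sfrp2* are the filled points below 0, and the 9 filled points of the other lists lie above 0. Of these 9, *Axin2* and *Tcf7* passed the minimum only through the mutants. *Bcl9l*, listed at 0 in libraries of both genotypes, is among the open points.

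Markers of other cell types differed between the genotypes along with the members, and their part in these results was not tested. Cartilage markers summed to 6624, 3565 and 1041 FPKM in *Tmem53*-/- calvaria, against 267, 252 and 241 FPKM in *Tmem53*+/- calvaria, and 12 of 15 rose. Of these 12, *Matn1*, *Matn3* and *Ucma* had a *Tmem53*+/- mean below 0.5 FPKM. They passed the minimum only through the mutants, so that their calls are a description only. The order of the mutant libraries in the cartilage sum, replicate 1 highest and replicate 3 lowest, is also that of *Frzb*. It is equally that of *Sfrp1*, which fell, and of *Dkk3*, which was not called. *Col2a1*, the main cartilage collagen, had 2932, 1526 and 326 FPKM in *Tmem53*-/- calvaria, against 41.1, 75.1 and 50.3 FPKM in *Tmem53*+/- calvaria. Osteoblast and osteocyte markers rose in 6 of 11 cases, including *Runx2*, *Sp7* and *Alpl*, while their sum is set by genes listed at 0 in single libraries and is not compared.

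Osteoclast markers summed to 202 to 334 FPKM in *Tmem53*-/- calvaria, against 682 to 3880 FPKM in *Tmem53*+/- calvaria, and 6 of 8 tested fell. Of these 6, *Oscar*, *Tm7sf4* and *Siglec15* had a *Tmem53*-/- mean below 0.5 FPKM. They passed the minimum only through *Tmem53*+/- libraries, so that their calls are a description only. Within *Tmem53*+/- calvaria, replicate 2 had the lowest osteoclast sum. It also had the lowest *Sfrp1*, *Sfrp2* and *Sfrp4* and the highest *Wif1*, *Frzb*, *Dkk2* and *Dkk3*. Of these, *Dkk2* was lower in every mutant library, and the mutants had osteoclast sums of 202 to 334 FPKM. Replicate 2 was also the only male of its genotype, and the part of sex or of osteoclasts was not tested. Markers of suture mesenchyme, periosteum and tendon, tissues in which mesenchymal precursors lie, summed to 939 to 1770 FPKM in *Tmem53*-/- calvaria, against 1171 to 1317 FPKM in *Tmem53*+/- calvaria. Of these 10 markers 1, *Gli1*, rose and 0 fell by limma, with 2 at an unadjusted p under 0.05, beside 27.9% of all genes tested. *Gli1* had 7.62, 5.50 and 6.09 FPKM in *Tmem53*-/- calvaria, against 0.0514, 0.0308 and 0.0590 FPKM in *Tmem53*+/- calvaria. It passed the minimum only through the mutants, so that its call is a description only. Markers of skeletal muscle, epidermis, neurons and glia, and meninges reached at most 28.5 FPKM in sum in any library. In that order, 3, 1, 4 and 2 of them were high enough to be tested, and limma called 0. Of those tested, 3 were at an unadjusted p under 0.05, beside 27.9% of all genes tested.

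**Figure D5:**
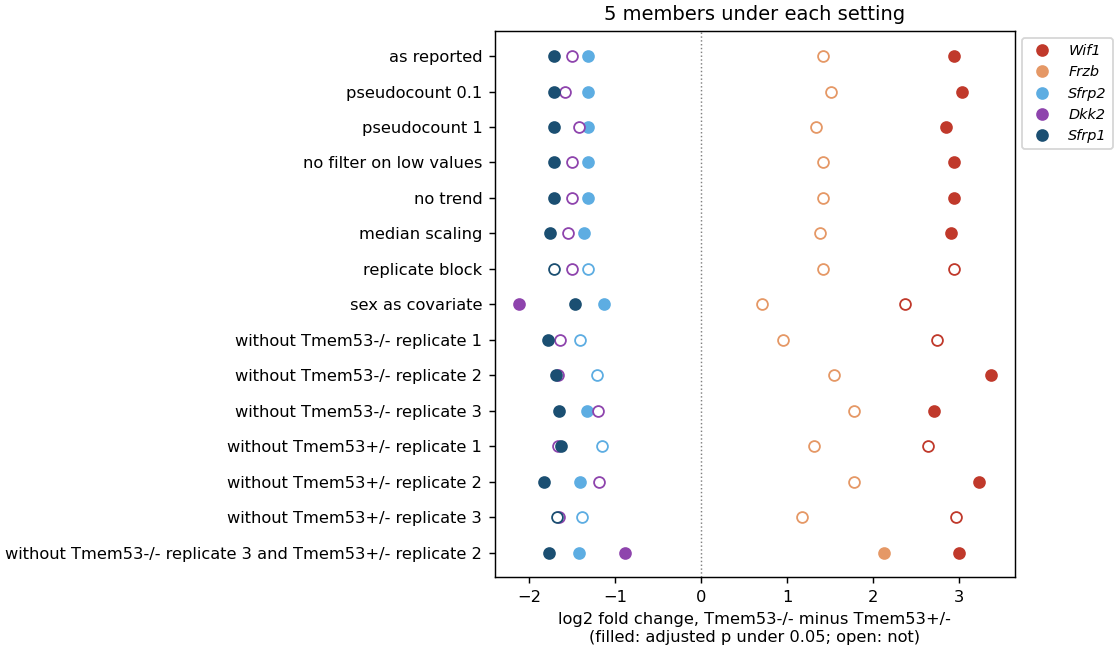
Log2 fold change of 5 members, *Tmem53*-/- minus *Tmem53*+/-, as reported (top) and under each of 14 alternatives, with filled points for a limma adjusted p under 0.05. In every setting *Wif1* and *Frzb* lie above 0 and *Sfrp1*, *Sfrp2* and *Dkk2* below 0, while the filling of the points changes between settings.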

How the data were processed

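Calvaria of 3 *Tmem53*-/- and 3 *Tmem53*+/- pups gave 1 RNA library each. The authors depleted ribosomal RNA, prepared directional libraries, sequenced paired ends, trimmed adapters with the FASTX-toolkit, aligned with TopHat2 2.1.1 to NCBI build37.2 and quantified with Cufflinks 2.1.1 and Cuffdiff 2.1.1. The annotation, library type option and scaling between libraries were not given in the sources used here. Deposited values are FPKM, in 1 column per pup, with no counts, so that depth enters only through the spread between pups.

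The FPKM were used as deposited. Of 32350 entries, the 7233 that lack a symbol were left out, as were those averaging under 0.5 FPKM, and log2(FPKM + 0.5) of 13535 genes was compared between genotypes with limma 3.58.1 in R 4.3.3 (eBayes with a trend), with Benjamini-Hochberg adjustment over all genes and an adjusted p under 0.05 for a call. The p-values measure the spread between these pups. The procedure was also run on simulated data with independent normal noise in each gene and library. That run does not cover outlying libraries, unequal sexes or failed estimates. Single sums and shares were compared by exact two-sided permutation tests. Merged entries of overlapping genes were not split, which leaves *Bcl9* out, and of genes with 2 entries the higher was used.

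The text names all members and, from each pathway list, up to 3 called genes in each direction by adjusted p, with *Lrp5*, *Lrp6*, *Ctnnb1*, *Axin2*, *Lef1* and *Sost*. The members and lists were chosen with earlier results of these data known. Alternatives were pseudocounts of 0.1 and 1, no filter on low values, no trend, median scaling, the replicate number as a block, sex as a covariate, and each library left out. After the data had been seen, leaving out the least alike library of each genotype together was added.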

Additional observations from a re-analysis of the deposited data

How the results depend on the processing

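*Sfrp1*, *Sfrp2*, *Frzb*, *Wif1* and *Dkk2* kept their direction in all 14 alternatives. Of 280 values of single genes under alternatives, 193 kept direction and side of the threshold, 68 lost the call, 8 gained it and 11 changed sign. Members called higher numbered 1, and 0 with sex as a covariate, 0 to 2 without 1 library and 4 (*Sfrp5*, *Frzb*, *Wif1*, *Dkk3*) without *Tmem53*-/- replicate 3 and *Tmem53*+/- replicate 2 together. Of these, *Sfrp5* counts only without *Tmem53*-/- replicate 3, against values all listed at 0, and supports nothing. Members called lower numbered 2, 0 to 2 without 1 library, and 3 (*Sfrp1*, *Sfrp2*, *Dkk2*) with sex as a covariate as well as without both libraries. The members' median log2 fold change was 0.40, and -0.029 to 0.70 without 1 library, in each case with *Sfrp5* counted. Leaving *Sfrp5* out of the fit with all libraries gave 0.07. Pathway genes called higher numbered 9, and 0 to 17 without 1 library and 22 without both libraries. Pathway genes called lower numbered 0, but 1 under median scaling (*Fzd1*), 4 with sex as a covariate (*Fzd1*, *Ror2*, *Wnt2*, *Tpbg*), 0 to 3 without 1 library and 5 without both libraries (*Fzd1*, *Wnt16*, *Rspo2*, *Rspo3*, *Lgr5*), genes named after their values had been seen. Log2 fold changes changed sign for *Sfrp4* (0.74, but -0.057 without *Tmem53*-/- replicate 1, within -0.057 to 1.38 without 1 library), *Dkk3* (-0.23 with sex as a covariate, -0.035 without *Tmem53*+/- replicate 1, within -0.035 to 0.22 without 1 library, and 0.32 without both libraries), *Lrp5* (-0.019 under median scaling, -0.24 with sex as a covariate, -0.10 without *Tmem53*+/- replicate 3 and -0.0012 without *Tmem53*-/- replicate 3) and *Lrp6* (-0.19 to 0.10 without 1 library, 0.16 without both libraries). The differences behind the counts with sex as a covariate rest on replicate 2 as the only male *Tmem53*+/- library. The causes of the changes between settings were not tested.

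The paper calls the *Tmem53*+/- pups littermates of the mutants, but the labels do not say whether equal replicate numbers pair them. Deviations of pups with equal numbers correlated at 0.05, -0.23 and -0.14. With 3 libraries per genotype, 1 of them standing apart in each, these values cannot decide whether the pups were paired. With the replicate block 0 members were called higher, 0 lower, and 0 pathway genes higher, among 30 genes called in all, against 956 without the block. The number of genes called ran from 14 to 2216 without 1 library. *Dkk1*, *Sostdc1* and *Sost* lie where FPKM without counts give no precision.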
